A study of Mus musculus with 4 samples.

Results

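The MHC class II genes are 10 genes of antigen presentation, taken by gene name from the 4 deposited gene tables: H2-Aa, H2-Ab1, H2-Eb1, H2-DMa, H2-DMb1, H2-DMb2, H2-Oa, H2-Ob, Cd74 and Ciita. All 10 were found, on 1 row per table, among 23337 gene names. They were compared between 2 libraries of YFP+ and 2 libraries of YFP- cells, all labelled as macrophages of the liver (Kupffer cells), from mice aged 6 to 8 weeks. All of these mice carry the alleles Lyz2cre and RosaYFP, in which Cre made from the lysozyme gene Lyz2 turns on a yellow fluorescent protein at the Rosa locus, so that a YFP+ cell, or a cell it came from, once made Cre. Lyz2 is active in macrophages and other myeloid cells, so the reporter does not mark Kupffer cells alone. YFP- cells come from the same kind of mouse and were sorted as negative for YFP. Male and female mice were used, and 1 library title of each group begins with M and the other with FM. What these title starts stand for is not stated in the labels, nor whether libraries came from separate animals, so the p-values measure the spread between these libraries, which may be technical.

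Class II molecules carry peptides of proteins taken up by a cell to its surface, where CD4+ T cells read them. The alpha and beta chains assemble in the endoplasmic reticulum with the invariant chain, Cd74, which guides them to the endosome. There the peptide exchange factor H2-DM replaces the last piece of Cd74 by antigen peptides, and H2-O, known mainly from B cells, inhibits H2-DM. Ciita is a transactivator of class II genes, and it acts through proteins bound to a conserved promoter module of X and Y boxes. Kupffer cells are among the antigen-presenting cells of the liver.

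That promoter module is the sequence feature that the H2 genes are known to share, so the promoters are shown first. RefSeq promoter entries (GRCm38.p6) matched 7 of the 10 genes, and for 6 of them the RefSeq start lay within 200 bases of the start in the deposited tables. Below are the 150 bases before the RefSeq start of each, read 5′ to 3′ on the gene's own strand. Their positions are chr17:34287824-34287973 (minus strand) for H2-Aa, chr17:34305717-34305866 (plus strand) for H2-Eb1, chr17:34153041-34153190 (plus strand) for H2-DMb1, chr17:34145099-34145248 (plus strand) for H2-DMb2, chr17:34092229-34092378 (plus strand) for H2-Oa and chr17:34238755-34238904 (plus strand) for H2-Ob. Capitals mark the letters GCAAC (X1 core), TGATG (X2 core) and TGATTGG (Y box) on the gene's strand.
H2-Aa: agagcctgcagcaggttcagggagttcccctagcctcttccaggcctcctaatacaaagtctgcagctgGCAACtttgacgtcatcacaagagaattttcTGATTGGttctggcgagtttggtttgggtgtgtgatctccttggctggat
H2-Eb1: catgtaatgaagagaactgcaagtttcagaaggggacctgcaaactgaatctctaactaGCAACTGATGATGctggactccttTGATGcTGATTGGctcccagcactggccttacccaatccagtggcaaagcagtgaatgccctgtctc
H2-DMb1: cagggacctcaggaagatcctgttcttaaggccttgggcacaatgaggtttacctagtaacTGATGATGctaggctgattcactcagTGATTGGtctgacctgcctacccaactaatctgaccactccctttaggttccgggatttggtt
H2-DMb2: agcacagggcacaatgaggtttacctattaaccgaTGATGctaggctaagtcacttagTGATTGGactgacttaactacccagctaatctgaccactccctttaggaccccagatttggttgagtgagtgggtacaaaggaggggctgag
H2-Oa: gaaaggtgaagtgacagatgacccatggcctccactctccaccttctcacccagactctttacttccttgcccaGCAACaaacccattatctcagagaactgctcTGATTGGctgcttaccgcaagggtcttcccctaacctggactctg
H2-Ob: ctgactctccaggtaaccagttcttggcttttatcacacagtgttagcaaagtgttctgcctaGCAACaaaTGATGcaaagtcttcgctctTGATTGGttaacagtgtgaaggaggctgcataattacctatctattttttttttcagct

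The Y box letters TGATTGG stood in 6 of the 6 promoters on the gene's strand, against 5.71% of 32851 RefSeq promoter windows of the same length on either strand. GCAAC preceded the Y box in H2-Aa, H2-Eb1, H2-Oa and H2-Ob, with 26, 25, 26 and 23 bases between them. This order, 10 to 40 bases apart on either strand, was held by 0.207% of all windows. TGATG stood in H2-Eb1, H2-DMb1, H2-DMb2 and H2-Ob on the gene's strand and in H2-Aa on the opposite strand. In H2-Eb1 it occurs 3 times, and 2 of these overlap. GCAAC was held by 19.6% and TGATG by 22.3% of all windows on either strand. The motifs were spelled with these sequences in view, and a match is a description of letters. Other spellings of the boxes were not searched. The promoters with GCAAC before the Y box belonged both to genes that stood higher and to genes that stood lower in YFP+ libraries, as given below. H2-DMa had RefSeq starts only 10153 and 12839 bases from its deposited start and is not shown.

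Cell type markers differed strongly between the groups, and this bears on every value that follows. A list of 10 Kupffer cell markers, led by Cd5l, Clec4f and Marco, summed to 34346 and 33181 TPM (a length-corrected abundance that sums to the same total in every library) in the YFP+ M and FM libraries, against 6008 and 12519 TPM in the YFP- M and FM libraries. A list of 10 microglia markers, among them Fcrls and Olfml3, summed to 1021 and 75.5 TPM in YFP+ against 17678 and 16425 TPM in YFP- libraries, although the labels give liver as the tissue. All 10 microglia markers were lower in both YFP+ libraries than in both YFP- libraries, as were 79.7% of all tested genes. Their median difference in log2(TPM + 1), YFP+ minus YFP-, was -5.99, beside -1.73 over all tested genes. In each YFP- library the microglia list summed to more than the Kupffer cell list. Of the 10 Kupffer cell markers 8 were higher in both YFP+ libraries than in both YFP- libraries, beside 2.50% of all tested genes. Spic and C6 overlapped. In limma 5 of the 10 were called higher, beside 0.522% of all tested genes. With the libraries rescaled by quantile normalization or cyclic loess 0 were called, and under median-ratio scaling 6 were called higher, beside 5.62%. Kupffer cell markers were present in all 4 libraries. Both libraries labelled YFP- thus carried a marker set of another tissue beside that of their label, and no comparison can be given without them. In such bulk samples, fewer cells of a type and less RNA per cell cannot be told apart. B cell markers, among them Cd79b and Cd79a, summed to 535 and 78.8 TPM in YFP+ and to 635 and 626 TPM in YFP- libraries. Conventional dendritic cell markers summed to 211 and 189 TPM in YFP+ and to 255 and 498 TPM in YFP- libraries. Of these 10 markers 8 fell, among them Ccr7, beside 39.5% of all tested genes called lower, and Clec10a overlapped. With the libraries rescaled by quantile normalization or cyclic loess 0 of the 10 fell, and under median-ratio scaling 1 fell and 1 rose. Batf3, at 119 and 160 TPM in YFP+ against 54.3 and 54.4 TPM in YFP- libraries, made up most of the YFP+ sum and was not called. Monocyte-derived macrophage markers, led by Plac8, Ly6c2 and Chil3 (listed as Chi3l3), summed to 1245 and 2754 TPM in YFP+ and to 1897 and 1229 TPM in YFP- libraries. A list of 8 endothelial markers for the liver sinusoid, led by Cldn5, Eng and Clec4g, summed to 347 and 171 TPM in YFP+ and to 1193 and 1250 TPM in YFP- libraries. Of these, 5 were lower in both YFP+ libraries, beside 79.7% of all tested genes, and 3 overlapped. Cldn5 stood at 19.1 and 4.36 TPM in YFP+ against 435 and 372 TPM in YFP- libraries. Clec4g overlapped, at 109 and 61.2 TPM in YFP+ against 279 and 74.4 TPM in YFP- libraries. Whether the list is particular to sinusoids was not tested. None of the markers found in the files was listed at 0 in any of the 4 libraries. The part of these cell types in the class II values was not tested.

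**Figure D1:**
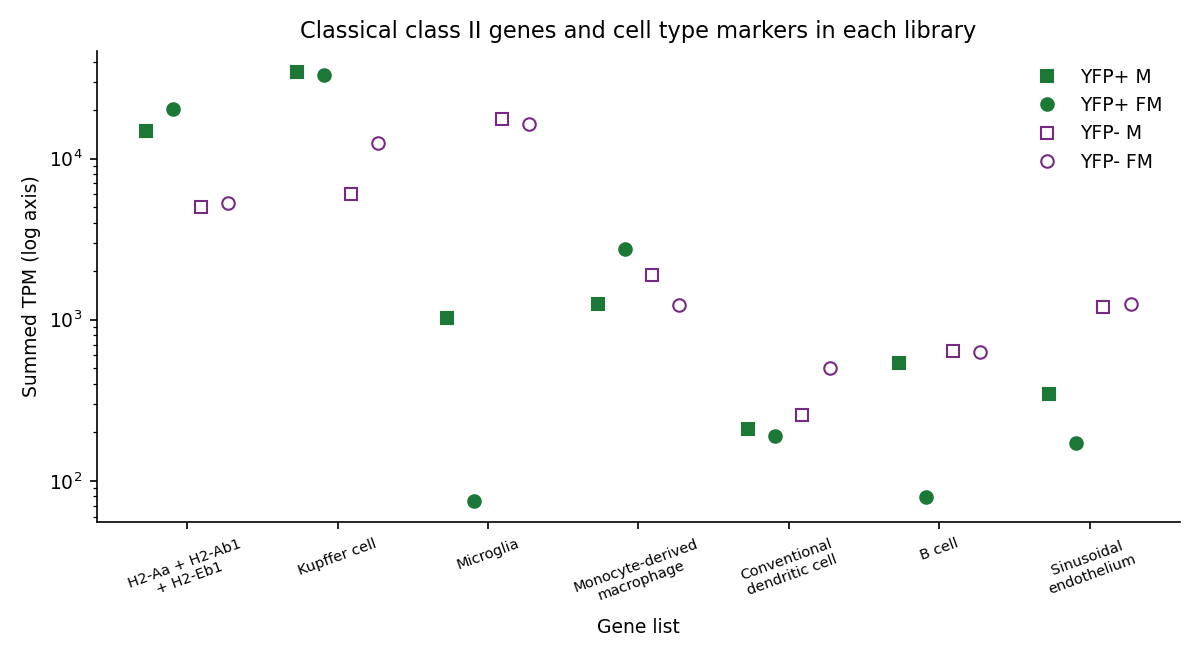
Summed TPM on a log axis of the 3 classical class II genes and of 6 marker lists, with 1 point per library (filled green for YFP+, open purple for YFP-, squares for M and circles for FM titles). The microglia list sums to 17678 and 16425 TPM in the YFP- libraries, against 1021 and 75.5 TPM in the YFP+ libraries.

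The 10 class II genes together made up 3.36% and 4.51% of all TPM in the YFP+ M and FM libraries, against 1.31% and 1.25% in the YFP- M and FM libraries. By TPM, Cd74 was the highest and Ciita the lowest of the 10 in every library. H2-Aa, H2-Ab1 and H2-Eb1 followed Cd74, with H2-Ab1 above H2-Aa in the YFP- M library only, and then came H2-DMa and H2-DMb1 in all 4. H2-DMb2, H2-Oa and H2-Ob changed places between libraries. Of the 10 genes, 5 were higher in both YFP+ libraries than in both YFP- libraries, 2 were lower in both, and 3 overlapped. Among all 12251 tested genes, 2.50% were higher and 79.7% lower in this sense. Most tested genes thus lay lower in YFP+ libraries, although TPM sums to the same total in each. The median difference in log2(TPM + 1), YFP+ minus YFP-, was -1.73 over all tested genes. Library complexity moved with it: 10302 and 7386 genes reached 1 TPM in the YFP+ M and FM libraries, against 12434 and 12829 in the YFP- M and FM libraries, and the 100 most abundant genes took 54.0% and 66.1% of TPM in YFP+ against 40.9% and 29.7% in YFP- libraries. Its part in the lower values was not tested. Relative to that median, which is taken over genes of all levels, the differences of 8 class II genes were above 0. Those of H2-Oa and H2-Ob were below it. The median is not a baseline for the most abundant genes alone.

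**Figure D2:**
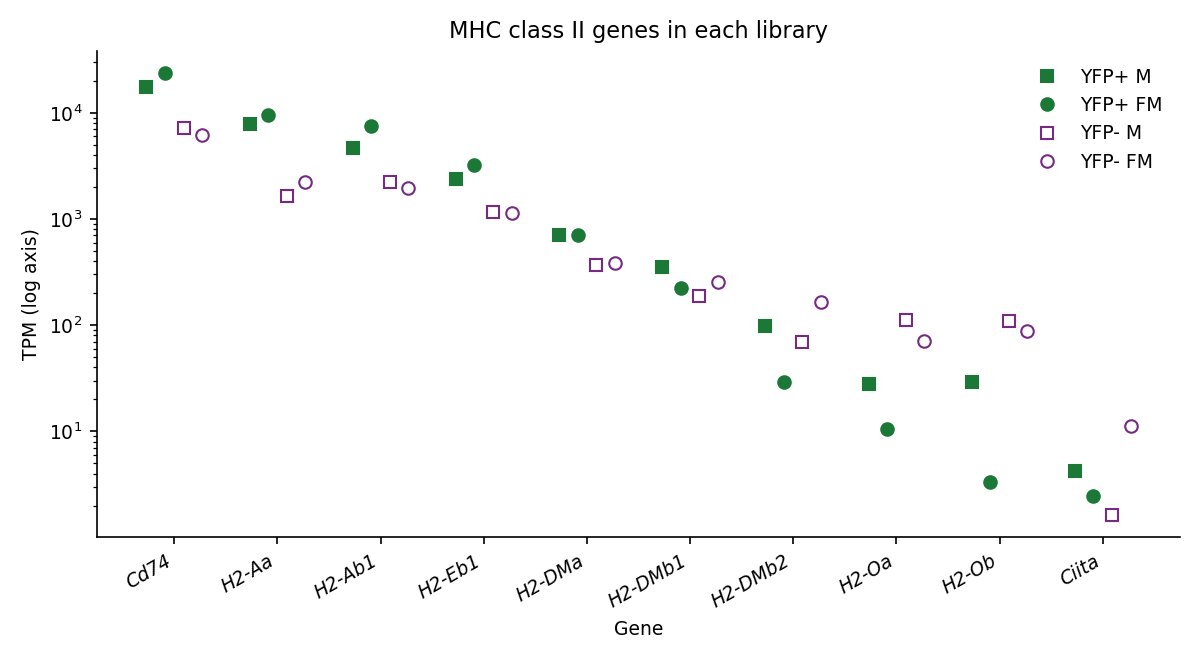
TPM of each class II gene on a log axis, with 1 point per library (filled green for YFP+, open purple for YFP-, squares for M and circles for FM titles). Cd74, H2-Aa, H2-Ab1, H2-Eb1 and H2-DMa are higher in both YFP+ libraries, H2-Oa and H2-Ob are lower in both, and H2-DMb1, H2-DMb2 and Ciita overlap.

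Cd74, on chromosome 18, was among the most abundant transcripts of every library. It stood at 17500 and 23778 TPM in the YFP+ M and FM libraries, against 7197 and 6190 TPM in the YFP- M and FM libraries. Ordered by TPM, it was gene number 3 in both YFP+ libraries, and number 10 and 7 in the YFP- M and FM libraries. Its mean was 20639 ± 4440 TPM in YFP+ and 6694 ± 712.5 TPM in YFP- libraries (SD, n = 2 each), and its log2 difference of 1.61 (SE 0.54) passed the test (limma, adjusted p = 0.0134).

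Classical class II chains make up the I-A molecule, of H2-Aa and H2-Ab1, and the beta chain of the I-E molecule, H2-Eb1. H2-Aa (chr17:34282751-34287771 in the tables, minus strand) stood at 7856 and 9605 TPM in the YFP+ M and FM libraries, against 1657 and 2206 TPM in the YFP- M and FM libraries. The groups did not overlap, and H2-Aa had the largest difference of the 10 genes in this direction, with a log2 difference of 2.18 (SE 0.62, limma, adjusted p = 0.00340). H2-Ab1 (chr17:34263227-34269418, plus strand) stood at 4615 and 7456 TPM in YFP+ against 2212 and 1951 TPM in YFP- libraries. Its difference was 1.50 (SE 0.63, limma, adjusted p = 0.0447), and the YFP+ FM library was the highest. H2-Eb1 (chr17:34305867-34316674, plus strand) was at 2401 and 3248 TPM in YFP+ against 1165 and 1133 TPM in YFP- libraries, again without overlap. With a log2 difference of 1.28 (SE 0.68) it did not pass (limma, adjusted p = 0.109), and it did with FPKM in place of TPM (1.82, adjusted p = 0.0473). Ordered by TPM, H2-Aa was gene number 20 and 16 in the YFP+ libraries and number 109 and 47 in the YFP- libraries.

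Calls of Cd74, H2-Aa and H2-Ab1 ended when either YFP+ library was left out. Without the YFP+ M library the adjusted p was 0.215 for Cd74, 0.0925 for H2-Aa and 0.183 for H2-Ab1, and without the YFP+ FM library it was 0.447, 0.234 and 0.498 in the same order, while leaving out either YFP- library kept all 3 calls. Without the YFP+ M and the YFP+ FM library the differences were 1.83 and 1.39 for Cd74, 2.33 and 2.04 for H2-Aa, and 1.843 and 1.151 for H2-Ab1. The SE of H2-Aa was 1.28 and 1.24 in these fits, against 0.62 with all libraries. In these fits the arm left with 1 library was assumed to vary like the other. With the libraries rescaled to a common distribution (quantile normalization), the differences were 0.59, 1.33 and 0.78 in the same order and none of them passed. Under cyclic loess they were -0.25, 0.94 and 0.35, so the sign turned for Cd74, and under median-ratio scaling 3.91, 4.48 and 3.80, and again none passed. Cd74 missed the threshold with no mean trend (adjusted p = 0.0828, limma). H2-Ab1 also missed the threshold with a pseudocount of 0.1 (adjusted p = 0.0683), no filter (0.0750), a filter at 5 TPM (0.0572) and no mean trend (0.106). With the title start as a replicate block H2-Aa passed (adjusted p = 0.0476) and Cd74 (0.116) and H2-Ab1 (0.185) did not.

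H2-DM genes encode the alpha and beta chains of the peptide exchange factor. H2-DMa (chr17:34135671-34138535, plus strand) stood at 705.8 and 703.3 TPM in the YFP+ M and FM libraries, against 366.4 and 384.0 TPM in the YFP- M and FM libraries. The spread within each group was small beside the distance between the groups, with means of 705 ± 1.80 TPM in YFP+ and 375 ± 12.4 TPM in YFP- libraries (SD, n = 2 each). Its log2 difference of 0.91 (SE 0.79) did not pass (limma, adjusted p = 0.322), since the SE comes from the trend over all genes of that level and not from the spread of H2-DMa itself. H2-DMb1, the main beta chain, was at 350.4 and 223.5 TPM in YFP+ and at 189.0 and 255.2 TPM in YFP- libraries, so the groups overlapped. H2-DMb2, the second beta chain, was at 97.65 and 28.97 TPM in YFP+ and at 69.31 and 164.5 TPM in YFP- libraries, with the lowest and the highest value both in FM libraries. Neither passed (limma, adjusted p = 0.730 and 0.381). Under median-ratio scaling H2-DMa and H2-DMb1 passed (adjusted p = 0.0453 and 0.0412), with differences of 3.20 and 2.64.

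How reads were split between H2-DMb1 and H2-DMb2 is uncertain. Their longest protein-coding transcripts in GENCODE M21 (GRCm38) were 94.8% identical over 1211 aligned bases, and 27.2% of the 50-base stretches of H2-DMb1 transcripts also occur in H2-DMb2. No other pair among the 10 genes and H2-Eb2 shared a stretch of that length. The sum of the 2 beta chains relative to H2-DMa was 0.635 and 0.359 in the YFP+ libraries, against 0.705 and 1.09 in the YFP- libraries. How reads that match both genes were counted is unknown, so the sum may depend on it as well.

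H2-O genes, the inhibitor of H2-DM, stood lower in both YFP+ libraries, where the classical chains stood higher. H2-Ob (chr17:34238905-34245908, plus strand) stood at 29.4 and 3.35 TPM in the YFP+ M and FM libraries, against 109.5 and 88.7 TPM in the YFP- M and FM libraries. It fell, with a log2 difference of -3.11 (SE 1.06, limma, adjusted p = 0.0150), and the YFP+ FM library was far below the other 3. H2-Oa (chr17:34092379-34095234, plus strand) was at 27.9 and 10.5 TPM in YFP+ against 112 and 71.4 TPM in YFP- libraries. The groups did not overlap, but the difference of -2.31 (SE 1.04) did not pass (limma, adjusted p = 0.0598). Relative to the median of all genes these differences were -1.38 for H2-Ob and -0.58 for H2-Oa. That of H2-Oa was -0.07 with a pseudocount of 0.1, -0.0041 under median-ratio scaling and 0.07 without the YFP- M library. The call of H2-Ob ended without the YFP+ FM library, where its difference was -1.71 (adjusted p = 0.231, limma). It also ended without the YFP- M (-2.96, adjusted p = 0.388) or the YFP- FM library (-3.26, 0.680), with the block (-3.11, 0.110), and under quantile normalization (0.251), median-ratio scaling (0.2697) and cyclic loess (0.269). H2-Oa passed without a mean trend (adjusted p = 0.0153, limma). Beside H2-O stand the B cell genes, since B cells are its best known source, and their list summed to 535 and 78.8 TPM in YFP+ against 635 and 626 TPM in YFP- libraries. The part of B cells in the H2-O values was not tested. An antisense gene, BC051537, overlaps H2-Oa in GENCODE M21 and was listed at or under 0.612 TPM in every library.

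Ciita (chr16:10480072-10527564, plus strand) was the least abundant gene of the set. It stood at 4.19 and 2.47 TPM in the YFP+ M and FM libraries, and at 1.64 and 11.2 TPM in the YFP- M and FM libraries, so both extremes were YFP- libraries. The deposited mean read coverage of Ciita was 3.78 and 1.47 in YFP+ and 2.52 and 3.55 in YFP- libraries, which makes it the most thinly read of the 10 genes. Its log2 difference was -0.42 (SE 0.92, limma, adjusted p = 0.698), and the sign turned under quantile normalization (1.53), median-ratio scaling (1.39) and cyclic loess (1.66).

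Counted over the set, limma called 3 of 10 genes higher and 1 lower, beside 0.522% of all tested genes called higher and 39.5% called lower. The 3 were Cd74, H2-Aa and H2-Ab1. All 10 genes passed the filter on low values, and their median log2 difference was 0.63, beside -1.73 over all genes. Under quantile normalization 0 were called, with 1 gene, Ciita, at an unadjusted p under 0.05 (limma), beside 1.21% of all genes called higher and 1.67% lower, and the median was 0.68 beside -0.03 over all genes. Cyclic loess called 0 as well, with Ciita alone at an unadjusted p under 0.05 (limma), beside 0.531% higher and 0.327% lower. Median-ratio scaling called 2 higher and 0 lower, beside 5.62% higher and 5.90% lower, and the median was 2.92 beside -0.08. With the title start as a replicate block 1 gene, H2-Aa, was called higher and 0 lower, beside 0.188% and 14.1% of all genes. For one gene on its own, the smallest two-sided p of an exact permutation test with 2 libraries a group is 0.333.

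**Figure D3:**
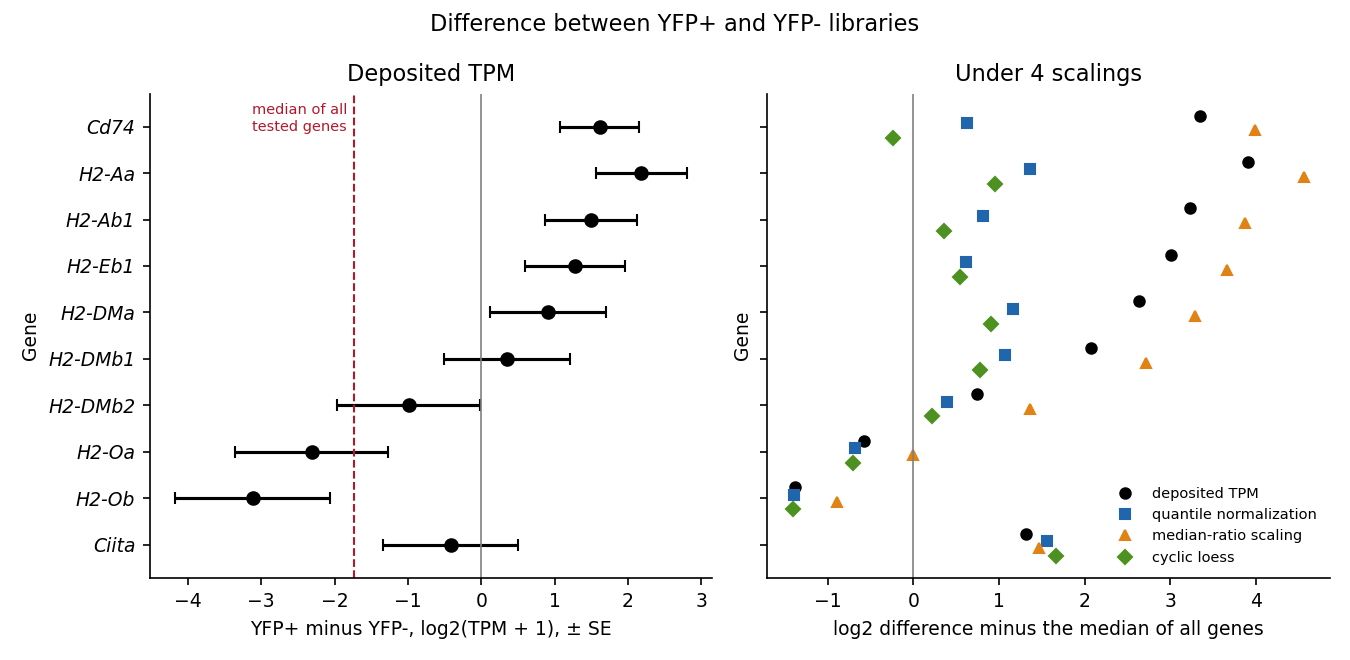
On the left, log2 differences (YFP+ minus YFP-, log2(TPM + 1)) with limma standard errors in deposited TPM, the dashed line marking the median of all tested genes at -1.73. On the right, the same differences relative to the median of all genes under 4 scalings, where H2-Ob lies below 0 in all 4 and Cd74 falls below 0 under cyclic loess.

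In a ratio of 2 genes within a library the TPM scaling cancels, but the mixture of cells does not. Cd74 divided by the sum of H2-Aa, H2-Ab1 and H2-Eb1 was 1.18 and 1.17 in the YFP+ M and FM libraries and 1.43 and 1.17 in the YFP- M and FM libraries. Thus 3 of the 4 libraries held the invariant chain and the classical chains in nearly the same proportion. H2-Aa divided by H2-Ab1 was 1.70 and 1.29 in YFP+ against 0.749 and 1.13 in YFP- libraries, without overlap but with a spread within each group larger than the gap. H2-Eb1 divided by H2-Ab1 stayed between 0.436 and 0.581 in all 4 libraries.

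H2-DMa relative to the classical chains was lower in both YFP+ libraries. Divided by the sum of H2-Aa, H2-Ab1 and H2-Eb1 it was 0.0475 and 0.0346 in YFP+ against 0.0728 and 0.0726 in YFP- libraries. H2-Oa divided by H2-DMa was 0.0396 and 0.0149 in YFP+ against 0.306 and 0.186 in YFP- libraries. The inhibitor's beta chain H2-Ob, divided by the sum of both H2-DM beta chains, was 0.0657 and 0.0133 in YFP+ against 0.424 and 0.211 in YFP- libraries. Both H2-O to H2-DM ratios were thus lower in each YFP+ library. The gap was larger than the spread within groups for H2-Oa but smaller than the spread between the YFP- libraries for H2-Ob. Since H2-DMa was higher in both YFP+ libraries, any gene lower in both is also lower relative to H2-DMa. Of all tested genes 79.7% were lower in both, so the lower ratio of H2-Oa to H2-DMa is not particular to H2-Oa. H2-DMb2 divided by H2-DMb1 was 0.279 and 0.130 in YFP+ against 0.367 and 0.645 in YFP- libraries, subject to the shared sequence given above. With 2 libraries a group these ratios carry no test.

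**Figure D4:**
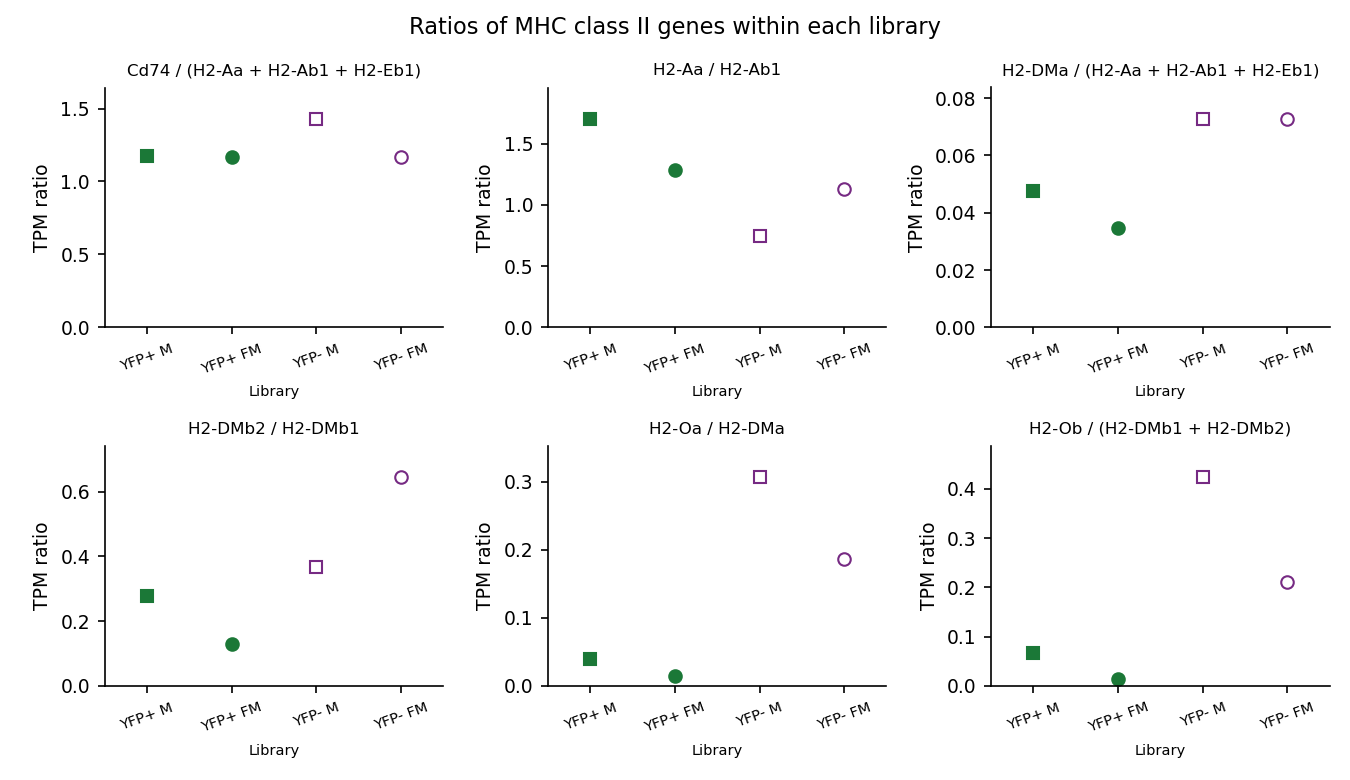
Ratios of TPM of class II genes within each library (vertical axes start at 0), with 1 point per library, YFP+ filled and YFP- open. The ratio of Cd74 to the classical chains lies between 1.17 and 1.43, and both H2-O to H2-DM ratios are lower in the YFP+ libraries. Of all tested genes, 79.7% were lower in TPM in both YFP+ libraries.

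Differences were then taken between libraries of the same title start. In the M pair H2-Aa differed by 2.24 (log2, YFP+ minus YFP-) and in the FM pair by 2.12, and H2-DMa by 0.94 and 0.87. Cd74 (1.28 and 1.94), H2-Ab1 (1.06 and 1.93) and H2-Eb1 (1.04 and 1.52) were higher in YFP+ in both pairs, and H2-Oa (-1.97 and -2.66) and H2-Ob (-1.86 and -4.37) lower in both. H2-DMb1, H2-DMb2 and Ciita had opposite signs in the 2 pairs. All genes together had a median of -1.01 in the M pair and -2.48 in the FM pair. Between FM and M titles, with the YFP group as a covariate, limma called 0 of the 10 genes and 0 had an unadjusted p under 0.05, beside 0.0490% of all tested genes called. The largest of these differences was -1.55 for H2-Ob (adjusted p = 0.9998, SE 1.38, limma).

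**Figure D5:**
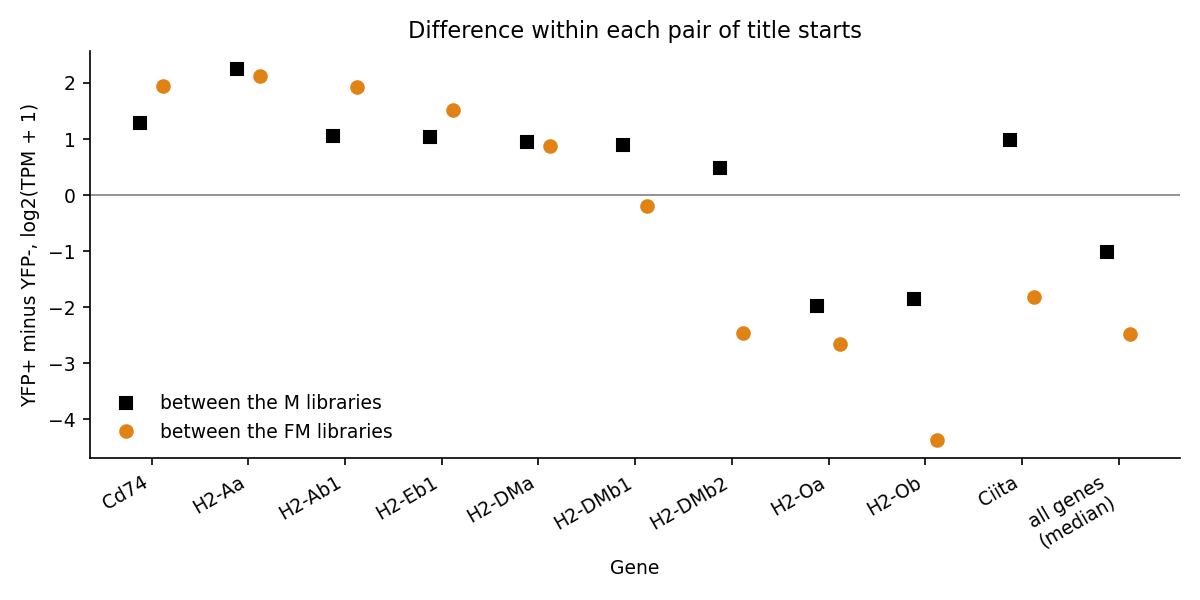
Log2 differences (YFP+ minus YFP-, log2(TPM + 1)) of each class II gene in the M pair (black squares) and the FM pair (orange circles), with the median of all tested genes at the right. H2-DMb1, H2-DMb2 and Ciita lie above 0 in the M pair and below 0 in the FM pair.

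The remaining class II genes of the locus were near the bottom of the range. H2-Eb2, a second I-E beta gene, was at 0.774 and 0.159 TPM in YFP+ against 7.34 and 2.56 TPM in YFP- libraries, and it fell (log2 difference -1.93, limma, adjusted p = 0.00521). H2-Ea-ps, the I-E alpha gene, annotated as a pseudogene in the reference strain, was listed at 0 in both YFP+ libraries and stood at 1.03 and 1.28 TPM in the YFP- libraries (-1.11, limma, adjusted p = 0.000755). Neither passed under quantile normalization (adjusted p = 0.711 and 0.835).

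Other genes of the pathway were read from lists of 64 genes, 61 of which passed the filter. Over the 5 lists 1 gene rose (1.64%) and 19 fell (31.1%), beside 0.522% and 39.5% of all tested genes, so these shares were near the background. Of 17 genes of class II transactivation, 0 rose and 5 fell, with a median of -1.71 beside -1.73 over all genes. Those that fell were Rfx5, a subunit of the X box binding complex (3.54 and 0.688 TPM in YFP+ against 12.8 and 17.2 TPM in YFP- libraries), the NF-Y subunit Nfyb, the acetyltransferase Ep300 and the interferon-gamma receptor kinases Jak1 and Jak2. None of these 5 passed under quantile normalization, median-ratio scaling or cyclic loess, and the sign of Ep300 turned under quantile normalization (0.10) and cyclic loess (0.0043).

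Antigen processing and class II trafficking held 22 tested genes, of which 1 rose and 6 fell (median -1.32). Ifi30, the lysosomal thiol reductase that opens disulfide bonds of antigens, was the gene that rose, at 3388 and 4339 TPM in YFP+ against 899 and 795 TPM in YFP- libraries (log2 difference 2.18, limma, adjusted p = 0.00837, and 0.152 under quantile normalization). Cystatin C, Cst3, an inhibitor of cysteine cathepsins, fell to 5073 and 5195 TPM in YFP+, against 37882 and 16095 TPM in YFP- libraries (-2.27, limma, adjusted p = 0.000631). Quantile normalization kept the call (adjusted p = 0.0400), and median-ratio scaling ended it (0.994), with a difference of 0.04. The tetraspanins Cd63 (-4.16) and Cd82 (-2.96), the ubiquitin ligase March1, which removes class II molecules from the surface (-3.27), the lysosomal GTPase Arl8b (-2.87) and the Cd74-cleaving protease Sppl2a (listed as 2010106G01Rik, -2.64) were also lower. Of these, Cd63 also passed with quantile normalization (adjusted p = 0.0379, limma) and with median-ratio scaling (0.0499) but not with cyclic loess (0.0530). The cathepsins Ctss, which trims Cd74 (-0.15, adjusted p = 0.830), Ctsd (-1.14, 0.0894) and Ctsb (0.74, 0.304) did not pass in limma, and the signs of Ctss and Ctsd turned under median-ratio scaling and that of Ctsb under cyclic loess.

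Co-stimulation genes that passed were Icosl, at 9.51 and 1.69 TPM in YFP+ against 41.5 and 96.5 TPM in YFP- libraries (log2 difference -3.60, limma, adjusted p = 0.00782), and the inhibitory receptor Vsir (listed as 4632428N05Rik, -3.43, adjusted p = 0.00162). With these, 0 of 10 tested genes of the list rose and 2 fell (median -1.55). Among 10 genes of class II repression and tuning 0 rose and 4 fell (median -1.46). The TGF-beta signal transducer Smad3 (-4.23), the interleukin 10 receptor Il10ra (-2.48), the deacetylase Sirt1 (-1.74) and the repressor Bcl6 (-1.46, and 0.04 under cyclic loess) were lower. Vsir (adjusted p = 0.0499) and Smad3 (0.0476) kept their calls under quantile normalization (limma), while Icosl, Il10ra, Sirt1 and Bcl6 did not. Neither passed under cyclic loess (0.0631 and 0.0689, limma), and under median-ratio scaling Smad3 passed (0.0134) and Vsir did not (0.264). Il10 stood at 385 and 156 TPM in YFP+ against 38.3 and 78.0 TPM in YFP- libraries. It was not called in deposited TPM (log2 difference 2.14, limma, adjusted p = 0.0535) or under cyclic loess (0.0530). Under quantile normalization (adjusted p = 0.0342, limma) and median-ratio scaling (0.00287) Il10 was called.

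Among the 20 genes of these lists that passed, 18 still did without the YFP+ M library, where Ifi30 (adjusted p = 0.0751) and Cst3 (0.135) did not. Without the YFP+ FM library 2 still passed, Cd63 (0.0294) and Smad3 (0.0300). With either YFP- library left out, 16 of them could be tested and the 2 that passed were Ifi30 and Cst3. These counts moved with the background, since limma called 68.6% of all tested genes without the YFP+ M and 8.05% without the YFP+ FM library, and 0.942% without the YFP- M and 0.633% without the YFP- FM library.

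Genes with the levels most like H2-Aa over the 4 libraries, by Euclidean distance of centred log2(TPM + 1) values, were Apoe, Nfkbia, Id2, Cxcl10 and Ifi30, at distances of 0.273 to 0.419. Provisional gene names, such as those beginning with Gm or containing Rik, were left out of this search. Most like Cd74, under the same rule, were Ftl1, C1qb, H2-Bl, H2-Ab1 and C1qa, at 0.156 to 0.298. Of these, H2-Bl stood under 3 TPM in every library, and its distance rests on small values. Within the class II set, H2-Aa was closest to Cd74 (0.733) and H2-Ab1 (0.853) and farthest from H2-Oa (4.70) and H2-Ob (5.75).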

How the data were processed

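RNA of sorted liver macrophages was measured in 4 libraries, grouped by the genotype label. Replicate numbers follow the order of deposit, with the M title as replicate 1 and the FM title as replicate 2. Per the file headers, the authors deposited mean read coverage (a signal per gene), FPKM and TPM for each gene. The submitters' processing notes name HISAT, GRCm38 and mm10, without versions. No source used here names the program that made the tables or says whether the libraries were stranded. In each deposited table the TPM column sums to 1000000. Depth in reads is unknown. Coverage per FPKM, a measure of relative depth, was 4.81 and 2.60 in the YFP+ M and FM libraries and 9.19 and 2.59 in the YFP- M and FM libraries, and 10885 gene names were listed at 0 in the YFP+ FM library.

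Rows of one name were summed. The 12251 genes that reached 1 TPM in 2 or more libraries were tested as log2(TPM + 1), a scale that makes changes of low genes look smaller. The test was limma 3.58.1 (R 4.3.3) with moderated variances and a mean trend, p-values were adjusted by Benjamini-Hochberg over all of these genes, and the threshold was 0.05. The model held the YFP group, and for the title starts also the start. "Rose", "fell" and "called" mean that a gene passed. In the main fits the prior degrees of freedom were infinite, so each p there rests on the trend and not on the gene's own spread. For YFP+ against YFP- they were 6.87 under quantile normalization, 5.56 under cyclic loess, 16.2 under median-ratio scaling and 24.0 without a filter. In those runs the gene's own spread also counts, so they differ from the main fit in the variance model too. The deviations of M libraries and of FM libraries from their group means were uncorrelated over genes (-0.0113), so the block is an alternative. Other alternatives were pseudocounts, filters, scalings, FPKM, no trend and each library left out.

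The genes and lists were chosen with earlier results of these data known. Named genes are all 10 class II genes, up to 5 called genes per list and direction with the most abundant ones (over 1000 TPM, at most 4 per list), the 3 most abundant markers per cell type (some are not reported here), and the 5 genes nearest to H2-Aa and Cd74. Il10 and the ratios to Clec4f and B2m were chosen after their values were seen. H2-Ea, and Ighm among the B cell markers, had no name of their own in the tables. Promoters came from RefSeq (GRCm38.p6) and transcripts from GENCODE M21, read with Biopython 1.88. Tables and figures were made with pandas 2.3.3, NumPy 2.4.6 and matplotlib 3.10.9 in Python 3.11.15.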

Additional observations from a re-analysis of the deposited data

Results flagged for a closer look

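H2-DMb1, H2-DMb2 and Ciita differed in opposite directions in the 2 pairs of title starts. The difference in log2(TPM + 1), YFP+ minus YFP-, was -0.19 in the FM and 0.89 in the M pair for H2-DMb1, -2.47 and 0.49 for H2-DMb2, and -1.81 and 0.98 for Ciita. Each pair holds 1 library of each group, so the difference between the pairs was not tested. Relative to the median of all tested genes in the same pair (-2.48 in FM and -1.01 in M), the values were 2.29 and 1.90 for H2-DMb1, 0.01 and 1.50 for H2-DMb2, and 0.66 and 1.99 for Ciita.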

How the results depend on the processing

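Counts of class II genes called (3 higher and 1 lower) depended on scaling, variance model and libraries. Higher and lower calls were 0 and 0 under quantile normalization and under cyclic loess, 2 and 0 under median-ratio scaling, 1 and 2 without a mean trend (beside 0.465% and 46.0% of all genes), 1 and 0 with the replicate block, and 1 and 0 under quantile normalization with the block (beside 6.14% and 5.31%), where the called gene was Ciita. Leaving out single libraries gave 0 to 3 higher and 0 to 2 lower, beside 0.0983% to 0.690% of all genes called higher and 0.234% to 68.2% lower; H2-Oa and H2-Ob were the 2, without the YFP+ M library. In the pathway lists (1 higher and 19 lower) the numbers were 1 and 4 under quantile normalization, 5 and 2 under median-ratio scaling, 0 and 1 under loess, 3 higher with FPKM (beside 0.980%), 2 higher without a trend, 0 and 7 with the block, 4 and 5 of 61 under quantile normalization with the block, near the same background, and 0 to 2 higher and 2 to 33 lower with single libraries left out. Directions turned for H2-DMb2 under quantile normalization (0.36, also with the block), median-ratio scaling (1.28) and loess (0.21), for Cd74 under loess (-0.25), and for Ciita under quantile normalization (1.53, also with the block), median-ratio scaling (1.39), loess (1.66) and without the YFP- FM library (0.69; -1.52 to 0.69 over the libraries left out). H2-Aa, H2-Ab1, H2-Eb1, H2-DMa, H2-DMb1, H2-Oa and H2-Ob kept their direction in every alternative run. Between title starts, signs turned for H2-DMa (-0.0451) and H2-DMb1 (0.0024) and H2-DMb2 (0.14) under quantile normalization, and for H2-DMb1 (0.44) and H2-DMb2 (0.28) under median-ratio scaling. Ciita could not be tested with a filter at 5 TPM. The cause of these changes was not tested. With deposited coverage in place of TPM, Cd74 per classical chains averaged 1.04 in YFP+ libraries (1.17 in TPM) and Ciita per 1000 of classical chains 0.0564 (0.202 in TPM).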

Other observations

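Class II levels can also be set beside a Kupffer cell gene and a class I gene of the same library, with ratios chosen after the values were seen. The sum of H2-Aa, H2-Ab1 and H2-Eb1 divided by Clec4f was 1.55 and 2.92 in the YFP+ M and FM libraries and 5.01 and 1.20 in the YFP- M and FM libraries. Both extremes were YFP- libraries, so the groups overlapped. Divided by B2m, the light chain of class I molecules, the same sum was 1.23 and 1.44 in YFP+ and 0.512 and 1.74 in YFP- libraries, again with both extremes in YFP-.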
